A study of Mus musculus with 6 samples.

Results

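The interferon-induced genes described here are 44 genes chosen by symbol, out of 23283 gene symbols measured. They comprise 40 genes that interferons are known to switch on and the 4 subunits of the type I and type II interferon receptors. All 44 symbols were found, and the values of each gene's transcripts were summed within a library. The RNA came from eosinophils of the small intestinal lamina propria of wild-type BALB/c mice. In 3 cultures the cells received GM-CSF at 10 ng/ml for 4 hours, and 3 cultures were kept untreated. GM-CSF is a cytokine that eosinophils bind through the receptor chains Csf2ra and Csf2rb, and the labels name no interferon in either group. The cultures were triplicates, and no label ties them to different mice, so the tests reflect how much these cultures varied, which may be technical variation.

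Type I interferons act through Ifnar1 and Ifnar2, and type II interferon through Ifngr1 and Ifngr2. Signals of the type I receptor reach the interferon-stimulated response element (ISRE) in target promoters, with Stat2 and Irf9 among the factors that bind there. Signals of the type II receptor reach the gamma-activated sequence (GAS). STAT5, a factor that GM-CSF is known to activate, binds letters of the GAS kind. Many of the induced proteins sense, bind or degrade viral nucleic acid, and others act on membranes or on vacuoles that hold a pathogen.

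Promoter letters are shown for 3 genes that rose with GM-CSF (Gbp7, Igtp and Ifi35) and for 1 abundant gene that fell (Ifitm2). They are also shown for 2 classical interferon targets: Isg15, tested without a called change, and Ifit1, too low to test. Each run is the 250 bases before a RefSeq gene start (GRCm38.p6), read 5′ to 3′ on the strand of the gene. Capitals mark the ISRE core, GAAA then any 2 bases then GAAA (TTTC, any 2 bases and TTTC on the other strand), and the GAS core TTCNNNGAA, which reads the same on both strands. Matches may overlap.
Gbp7 (chr3:142530086-142530335, plus strand): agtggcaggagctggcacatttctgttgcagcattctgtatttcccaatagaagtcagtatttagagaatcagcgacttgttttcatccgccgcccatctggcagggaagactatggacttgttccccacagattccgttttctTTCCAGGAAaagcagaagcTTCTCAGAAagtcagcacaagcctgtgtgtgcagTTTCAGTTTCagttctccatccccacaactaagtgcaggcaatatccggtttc
Igtp (chr11:58199306-58199555, plus strand): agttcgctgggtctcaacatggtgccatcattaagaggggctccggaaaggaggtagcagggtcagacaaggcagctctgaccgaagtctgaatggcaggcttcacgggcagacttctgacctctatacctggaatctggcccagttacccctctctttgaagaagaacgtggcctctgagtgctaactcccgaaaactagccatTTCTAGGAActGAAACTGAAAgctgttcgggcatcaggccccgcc
Ifi35 (chr11:101448162-101448411, plus strand): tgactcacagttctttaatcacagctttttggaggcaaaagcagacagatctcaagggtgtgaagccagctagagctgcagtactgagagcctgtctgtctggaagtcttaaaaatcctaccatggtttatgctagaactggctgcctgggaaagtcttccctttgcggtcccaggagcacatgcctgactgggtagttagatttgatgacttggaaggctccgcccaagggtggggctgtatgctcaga
Ifitm2 (chr7:140955962-140956211, minus strand): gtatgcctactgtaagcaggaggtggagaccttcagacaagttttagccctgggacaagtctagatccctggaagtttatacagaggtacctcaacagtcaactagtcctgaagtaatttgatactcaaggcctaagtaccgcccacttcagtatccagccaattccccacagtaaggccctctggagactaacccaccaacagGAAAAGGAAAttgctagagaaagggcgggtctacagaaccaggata
Isg15 (chr4:156200819-156201068, minus strand): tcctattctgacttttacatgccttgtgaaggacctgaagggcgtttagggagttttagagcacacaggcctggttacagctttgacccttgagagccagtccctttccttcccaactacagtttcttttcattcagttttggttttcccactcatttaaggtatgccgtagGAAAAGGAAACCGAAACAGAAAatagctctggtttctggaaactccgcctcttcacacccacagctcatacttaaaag
Ifit1 (chr19:34640639-34640888, plus strand): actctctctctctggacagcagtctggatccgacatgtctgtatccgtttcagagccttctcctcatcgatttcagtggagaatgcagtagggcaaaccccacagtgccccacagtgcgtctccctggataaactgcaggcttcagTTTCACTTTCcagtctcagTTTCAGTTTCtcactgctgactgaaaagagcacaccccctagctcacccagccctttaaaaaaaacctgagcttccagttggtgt
The Gbp7 run held 2 GAS cores and 1 ISRE core, and the Igtp run held 1 of each. The Ifi35 run held neither. The Isg15 run held 3 overlapping ISRE cores, the Ifit1 run 2 and the Ifitm2 run 1, with no GAS core in any of them.

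Of the 44 genes, 36 had a promoter in the RefSeq table. An ISRE core lay in 15 of the 36 (41.7%), against 936 of all 27025 genes in the table (3.46%). A GAS core lay in 10 of the 36 (27.8%), against 8.13% of all genes. Among the members that rose, 3 had a promoter, of which 2 held an ISRE core and 2 a GAS core. Among the 7 that fell, 1 held an ISRE core and 2 a GAS core. An ISRE core also lay in 6 of 15 tested members without a called change and in 6 of 11 members too low to test. A match describes the letters only.

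Levels are given in FPKM, fragments per kilobase of transcript scaled to the mapped fragments of the library, as the authors deposited them, so genes can be set side by side per length. The libraries rested on 0.820 to 1.32 gigabases of aligned sequence, with GM-CSF replicate 2 the deepest. A gene was tested if it averaged at least 1 FPKM over the 6 libraries, and a change was called at a limma adjusted p under 0.05. Log2 fold changes are GM-CSF over untreated on the log2(FPKM + 1) scale, so the change of a weakly expressed gene is understated.

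The 44 genes spanned a wide range of levels in these eosinophils. Ifitm2 averaged 1126 FPKM over the 6 libraries and Ifitm1 855 FPKM, and 5 members averaged at least 100 FPKM. Another 11 averaged 10 to 100 FPKM and 14 averaged 1 to 10 FPKM. The remaining 14 averaged under 1 FPKM and were not tested. These 14 included all 3 IFIT genes, Oas1a, Oas2, Oasl2, Mx1, Mx2, Rsad2 and Cmpk2, genes by which an interferon response is commonly recognised. The 44 members together summed to 2498, 2425 and 2489.9 FPKM in the GM-CSF libraries, against 3298, 3041 and 2962 FPKM in the untreated libraries. Ifitm1, Ifitm2 and Ifitm3 made up most of each sum, with 1814 ± 60.1 FPKM in GM-CSF libraries and 2399 ± 191 FPKM in untreated ones (SD, n = 3 each).

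**Figure D1:**
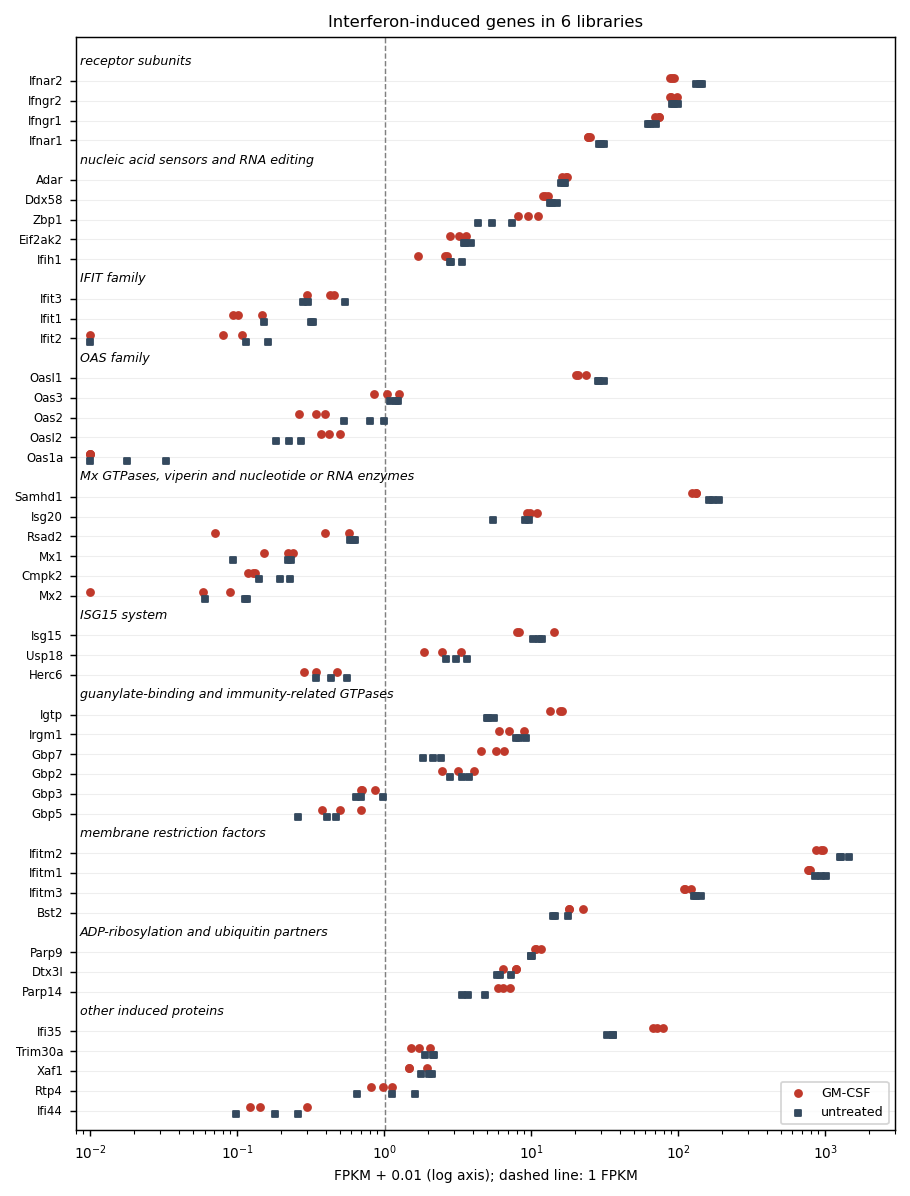
FPKM of the 44 members, grouped by role, in each of the 3 GM-CSF and 3 untreated libraries, plotted as FPKM + 0.01 on a log axis with a dashed line at 1 FPKM. Ifitm2 is the highest gene and the IFIT genes lie below 1 FPKM in every library.

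GM-CSF changed 12 of the 30 tested members. The GTPase genes Igtp and Gbp7, Ifi35, Zbp1 and Parp14 rose. The type I receptor genes Ifnar1 and Ifnar2, Oasl1, Samhd1, Ifitm1, Ifitm2 and Ifitm3 fell. These are 5 rises and 7 falls, where 7.68% of all 10106 tested genes rose and 14.2% fell (limma, adjusted p under 0.05). The median log2 fold change was -0.12 over the tested members and -0.05 over all tested genes. The 3 GM-CSF libraries all lay above the untreated ones for 7 tested members (13.2% of all tested genes) and all below them for 9 (26.0% of all tested genes).

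The balance of rises and falls depended on scaling. Over all genes it was 776 rises and 1436 falls as deposited, 1078 and 968 with median-of-ratios factors, and 954 and 1124 with quantile normalization. For the members it was 7 rises and 5 falls with median-of-ratios factors, under which Ifngr1 and Parp9 passed as well and Ifitm1 and Ifitm3 did not. With quantile normalization it was 5 rises and 6 falls. No called member changed sign under any of the 16 alternatives run.

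**Figure D2:**
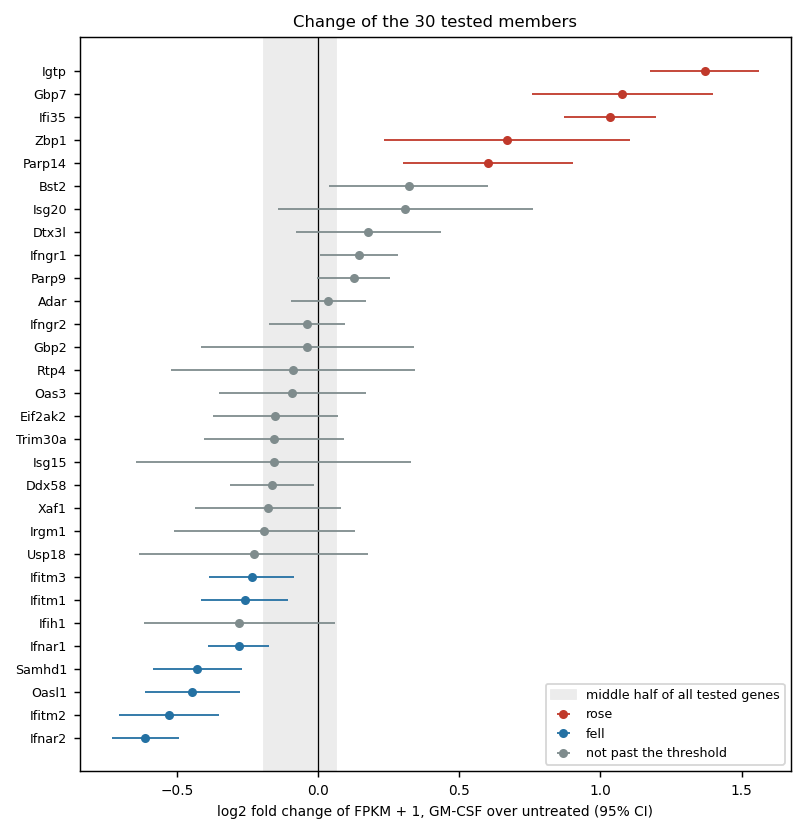
Log2 fold change of FPKM + 1, GM-CSF over untreated, for the 30 tested members, with 95% confidence intervals from limma. The grey band spans the 25th to 75th percentile of all tested genes, -0.19 to 0.06, and Igtp, Gbp7 and Ifi35 lie above 1.

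Among the receptor genes, both subunits of the type I receptor fell and neither subunit of the type II receptor passed the test. Ifnar2, the chain that binds type I interferon most tightly (chromosome 16, 91372783 to 91405589), had 91.5, 94.4 and 87.7 FPKM in the GM-CSF libraries, against 146, 140.0 and 133 FPKM in the untreated libraries. Every GM-CSF library lay well below every untreated one. The log2 fold change was -0.61 (SE 0.05, limma adjusted p = 0.000362). Both Ifnar2 transcripts were lower: the one of 1169 nt averaged 66.7 FPKM with GM-CSF and 98.6 FPKM without, and the one of 3045 nt averaged 24.5 FPKM with GM-CSF and 41.3 FPKM without.

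Ifnar1, the partner chain (chromosome 16, 91485032 to 91510523), had 25.1, 24.2 and 24.5 FPKM with GM-CSF, against 31.4, 29.7 and 29.2 FPKM in untreated libraries. The groups did not overlap, and the difference was small (log2 fold change -0.28, SE 0.05, limma adjusted p = 0.00633). Ifngr1, the ligand-binding chain of the type II receptor, had 74.7, 73.8 and 70.1 FPKM with GM-CSF and 64.4, 62.3 and 70.7 FPKM without. The groups overlapped through replicate 3 of each (log2 fold change 0.15, 95% interval 0.01 to 0.28, limma adjusted p = 0.128). Without untreated replicate 3 the limma adjusted p was 0.0451, and with median-of-ratios factors it was 0.0344. Ifngr2, the signalling partner of Ifngr1, had 90.1, 98.0 and 88.5 FPKM with GM-CSF and 90.4, 94.3 and 99.3 FPKM without. Its libraries were mixed between groups, and the 95% interval of the log2 difference was -0.17 to 0.10.

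The largest rise among the members was in a GTPase that acts on vacuoles holding a pathogen. Igtp, known in mouse cells as a target of type II interferon (chromosome 11, 58199556 to 58207592), had 13.5, 15.7 and 16.1 FPKM with GM-CSF, against 5.10, 5.56 and 5.03 FPKM without. The GM-CSF mean was 2.89 times the untreated mean, with a wide gap between the groups (log2 fold change 1.37, SE 0.08, limma adjusted p = 0.000102). Gbp7, a guanylate-binding protein (chromosome 3, 142530336 to 142550151), had 4.55, 6.55 and 5.80 FPKM with GM-CSF, against 1.84, 2.13 and 2.42 FPKM without. Its GM-CSF mean was 2.65 times the untreated mean, and the lowest GM-CSF library was above the highest untreated one (log2 fold change 1.08, SE 0.13, limma adjusted p = 0.00222). In the promoter runs above, both genes held an ISRE core and at least 1 GAS core.

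The locus of Igtp overlaps that of Irgm2 on the same strand, so reads of the pair may have been divided with error. Irgm2, another GTPase of the same family and no member of the 44, rose as well. It had 9.65, 11.0 and 13.4 FPKM with GM-CSF, against 4.17, 5.05 and 5.44 FPKM without (log2 fold change 1.06, SE 0.13, limma adjusted p = 0.00229). Irgm1, which controls other GTPases of its family, had 7.11, 6.03 and 8.97 FPKM with GM-CSF and 8.27, 7.88 and 9.25 FPKM without. These groups overlapped, with a 95% interval of -0.51 to 0.13 for the log2 difference. Gbp2 lies near Gbp7 on chromosome 3 and averaged 3.24 ± 0.797 FPKM with GM-CSF and 3.32 ± 0.497 FPKM without (SD, n = 3 each). Its 95% interval was -0.42 to 0.34, while that of Gbp7 was 0.76 to 1.40. Gbp3 and Gbp5 stayed under 1 FPKM in every library. Guanylate-binding proteins are similar in sequence, and the sources used here do not say how reads that match several of them were divided.

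Ifi35, a leucine zipper protein known to pair with Nmi (chromosome 11, 101448412 to 101458701), was the most abundant member that rose. It had 67.5, 78.6 and 72.4 FPKM with GM-CSF, against 32.9, 36.1 and 36.0 FPKM in untreated libraries. Each GM-CSF library was far above each untreated one, at 2.08 times the mean (log2 fold change 1.03, SE 0.07, limma adjusted p = 0.000154). Igtp, Gbp7 and Ifi35 lay at percentiles 98.9, 98.3 and 98.2 of the log2 fold changes of all tested genes. Their calls held under every alternative in which they were tested. Gbp7 was too low to be tested with a filter of 5 FPKM.

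Other members of mixed function did not pass. Trim30a, known in mouse cells to restrain NF-kB signalling, had 1.72, 1.52 and 2.06 FPKM with GM-CSF and 1.89, 2.16 and 2.16 FPKM without. Xaf1, which binds the apoptosis inhibitor Xiap, averaged 1.62 FPKM with GM-CSF and 1.96 FPKM without. Rtp4, a receptor transporter protein, averaged 0.968 FPKM with GM-CSF and 1.12 FPKM without. The groups of all 3 overlapped, and the 95% intervals of the log2 difference were -0.40 to 0.09 for Trim30a, -0.44 to 0.08 for Xaf1 and -0.52 to 0.34 for Rtp4. Ifi44 was barely detected, at 0.178 FPKM with GM-CSF and 0.169 FPKM without.

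**Figure D3:**
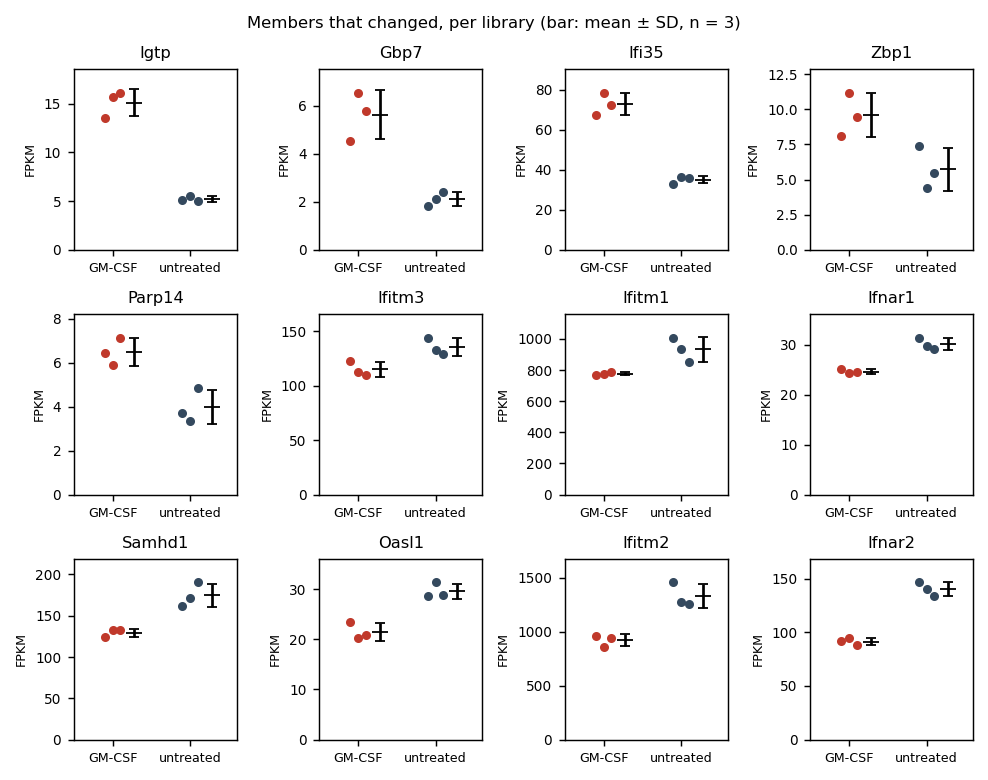
FPKM of the 12 called members in each library, GM-CSF at the left and untreated at the right of each panel, with the mean and SD of 3 libraries. The groups do not overlap in any panel, and the GM-CSF means of Igtp, Gbp7 and Ifi35 are 2.89, 2.65 and 2.08 times the untreated means.

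Of the 5 sensors and editors of foreign nucleic acid, 1 passed the test, a share of 20.0% where 21.9% of all tested genes were called. Zbp1, a sensor of Z-form nucleic acid that can start necroptosis (chromosome 2, 173206612 to 173218959), had 8.09, 11.2 and 9.48 FPKM with GM-CSF, against 7.39, 4.37 and 5.43 FPKM without. Untreated replicate 1 came close to the lowest GM-CSF library, and the call was near the threshold (log2 fold change 0.67, SE 0.18, limma adjusted p = 0.0428). Leaving out 1 library often ended it: the limma adjusted p was 0.0520 to 0.118 without GM-CSF replicate 1, 2 or 3 or untreated replicate 2 or 3, and 0.110 with the replicate number as a block.

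Adar, which edits adenosine in paired RNA, had 17.3, 16.2 and 17.7 FPKM with GM-CSF and 17.1, 15.9 and 16.7 FPKM without. Its libraries were mixed between groups, with a 95% interval of -0.10 to 0.17. Ddx58, which encodes the RNA sensor RIG-I, had 12.0, 13.1 and 12.5 FPKM with GM-CSF and 13.9, 13.4 and 15.1 FPKM without. All GM-CSF libraries were lower, and the difference did not pass (log2 fold change -0.16, SE 0.06, limma adjusted p = 0.119). Ifih1, which encodes the sensor MDA5, averaged 2.33 FPKM with GM-CSF and 3.00 FPKM without (95% interval -0.62 to 0.06). Eif2ak2, the kinase PKR that halts translation when it binds viral RNA, averaged 3.20 FPKM with GM-CSF and 3.65 FPKM without (95% interval -0.37 to 0.07).

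The IFIT proteins bind viral RNA and are strong targets of type I interferon, and all 3 genes were low in both groups. Ifit3 had 0.416, 0.289 and 0.447 FPKM with GM-CSF and 0.531, 0.270 and 0.293 FPKM without. Ifit1, whose promoter held 2 ISRE cores, had 0.0841, 0.0915 and 0.138 FPKM with GM-CSF and 0.143, 0.317 and 0.308 FPKM without. Ifit3 overlapped between groups and Ifit1 was lower in every GM-CSF library, but Ifit1 rested on only 198 to 815 aligned bases in a library, too few to measure a difference well. Ifit2 was listed at 0 in 2 of the 6 libraries.

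Of the OAS family, whose enzymes make the messenger that activates RNase L, Oasl1 was the best expressed. Oasl1 lacks that enzyme activity and is known in mouse cells to limit translation of Irf7 (chromosome 5, 114923143 to 114937911). It had 23.5, 20.2 and 20.8 FPKM with GM-CSF, against 28.6, 31.4 and 28.8 FPKM without. The fall was modest and the groups did not overlap (log2 fold change -0.44, SE 0.07, limma adjusted p = 0.00557). Oas3 had 1.25, 0.842 and 1.04 FPKM with GM-CSF and 1.24, 1.08 and 1.20 FPKM without, with overlapping groups and a 95% interval of -0.35 to 0.17. Oas2 averaged 0.324 FPKM with GM-CSF and 0.769 FPKM without, and Oasl2 0.422 FPKM with GM-CSF and 0.216 FPKM without, both below the level tested. Every GM-CSF library and 1 untreated library listed Oas1a at 0.

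Samhd1, which cleaves deoxynucleotides and so restricts retroviruses (chromosome 2, 157097534 to 157135096), was abundant and fell. It had 124, 132 and 133 FPKM with GM-CSF, against 162, 172 and 190.3 FPKM without. The highest GM-CSF library was below the lowest untreated one (log2 fold change -0.43, SE 0.07, limma adjusted p = 0.00504). Isg20, an RNA exonuclease, had 9.31, 10.9 and 9.82 FPKM with GM-CSF and 9.13, 5.50 and 9.62 FPKM without. Untreated replicate 2 was low and the groups overlapped, with a 95% interval of -0.14 to 0.76. The antiviral GTPase genes Mx1 and Mx2, Rsad2 (viperin) and its neighbour Cmpk2 each averaged under 1 FPKM in both groups.

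The ISG15 system attaches the ubiquitin-like protein Isg15 to other proteins. Of its 3 members, 2 were tested and neither passed. Uba7, the activating enzyme for Isg15, is no member, was read in a list below and fell (log2 fold change -0.41, limma adjusted p = 0.00212). Isg15 itself had 8.33, 14.3 and 8.005 FPKM with GM-CSF and 11.9, 10.3 and 11.3 FPKM without. GM-CSF replicate 2 was above every untreated library, and the other two GM-CSF libraries were below them (log2 fold change -0.16, 95% interval -0.64 to 0.33, limma adjusted p = 0.646). Without GM-CSF replicate 2 the log2 fold change was -0.40 (limma adjusted p = 0.0247), so 1 library decided this value. Usp18, which removes Isg15 from proteins and dampens the type I receptor, had 1.86, 3.31 and 2.46 FPKM with GM-CSF and 2.64, 3.06 and 3.63 FPKM without. GM-CSF replicate 2 was again the highest of its group, and the 95% interval was -0.63 to 0.18. Herc6, the ligase for Isg15 in mouse, averaged 0.359 FPKM with GM-CSF and 0.435 FPKM without.

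The IFITM genes encode short membrane proteins that hinder fusion of viruses with the cell, and all 3 members fell. Ifitm2 (chromosome 7, 140954837 to 140959686) ranked 39 among all symbols by mean level. It had 965, 861 and 939.8 FPKM with GM-CSF, against 1457, 1280.3 and 1256 FPKM without. There was a wide gap between the groups (log2 fold change -0.53, SE 0.07, limma adjusted p = 0.00348), and the call held under all 16 alternatives. Ifitm1 (chromosome 7, 140967429 to 140969827) had 771, 772 and 788 FPKM with GM-CSF, against 1009, 937 and 852 FPKM without. The untreated libraries spread more than the GM-CSF ones (log2 fold change -0.26, SE 0.06, limma adjusted p = 0.0315). Ifitm3 (chromosome 7, 141009590 to 141010744) had 123, 112 and 109.6 FPKM with GM-CSF, against 144, 133 and 129 FPKM without. Its groups were close together but did not overlap (log2 fold change -0.23, SE 0.06, limma adjusted p = 0.0396).

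Ifitm1 lost its call without GM-CSF replicate 1, 2 or 3 or untreated replicate 1 or 2 (limma adjusted p 0.0551 to 0.0993) and with the replicate number as a block (0.0566). Ifitm3 lost its call without GM-CSF replicate 2 or 3 or untreated replicate 1 or 2 (limma adjusted p 0.0942 to 0.113). With median-of-ratios factors the limma adjusted p was 0.138 for Ifitm1 and 0.190 for Ifitm3. The 3 genes are similar in sequence, so reads may have been divided among them with error.

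Bst2, the tetherin that holds budding virus at the membrane, had 18.2, 22.4 and 18.0 FPKM with GM-CSF and 14.6, 17.8 and 14.0 FPKM without. The lowest GM-CSF library was just above the highest untreated one (log2 fold change 0.32, SE 0.12, limma adjusted p = 0.107). With the replicate number as a block the limma adjusted p was 0.0139.

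Among the ADP-ribosylation partners, Parp14 rose. Parp14, an ADP-ribosyltransferase known as a cofactor of Stat6 in interleukin-4 responses (chromosome 16, 35831892 to 35871518), had 6.47, 5.90 and 7.15 FPKM with GM-CSF, against 3.74, 3.35 and 4.84 FPKM without. The groups did not overlap (log2 fold change 0.60, SE 0.13, limma adjusted p = 0.0169). Its call ended without GM-CSF replicate 1 or 3 or untreated replicate 1 or 2 (limma adjusted p 0.0508 to 0.0554). Parp9 had 10.8, 10.7 and 11.6 FPKM with GM-CSF and 9.98, 9.97 and 10.1 FPKM without. It was higher in each GM-CSF library, by little (log2 fold change 0.13, SE 0.05, limma adjusted p = 0.152), and with median-of-ratios factors the limma adjusted p was 0.0421. Dtx3l, the ubiquitin ligase that partners Parp9, had 7.87, 6.46 and 7.90 FPKM with GM-CSF and 5.83, 6.14 and 7.34 FPKM without, with overlapping groups and a 95% interval of -0.08 to 0.44. Parp9 and Dtx3l overlap on opposite strands. The library kit keeps strand, per the labels' protocols, but the sources used here do not say whether strand was used in quantification.

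Other genes of the interferon system were read from lists holding 133 measured genes, of which 80 were tested. Of these, 16 rose and 16 fell, with a median log2 fold change of -0.03. Over all tested genes 7.68% rose and 14.2% fell, the shares against which the counts of each list below are to be read. Without GM-CSF replicate 1 there were 9 falls. No interferon gene reached the level tested: of 17 measured, 7 were listed at 0 in every library, and the highest value was 0.420 FPKM, for Ifnab. Of the type III receptor genes, 1 of 2 was tested and it did not pass.

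In the signalling list 5 of 12 tested genes rose and 1 fell. Socs1, the inhibitor that blocks JAK kinases at interferon receptors, had 80.6, 109 and 75.8 FPKM with GM-CSF, against 2.56, 4.87 and 3.86 FPKM without. The rise was large beside that of any member (log2 fold change 4.24, SE 0.21, limma adjusted p = 5.08e-05). Another inhibitor gene, Socs3 (log2 fold change 3.22), the kinase gene Jak2 (1.08) and the phosphatase gene Ptpn2 (0.51) rose with it. Jak1, a kinase of both interferon receptors, fell (log2 fold change -0.33, SE 0.04, limma adjusted p = 0.00289). Of the factors that bind the ISRE, Irf9 rose (log2 fold change 0.32, limma adjusted p = 0.0224), a call that ended without GM-CSF replicate 1, 2 or 3 (0.0553 to 0.0692) and when the highest transcript stood for the gene (0.194). Stat2 averaged 12.3 FPKM with GM-CSF and 12.5 FPKM without (95% interval -0.17 to 0.14).

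Among the IRF factors 1 of 6 tested rose and 2 fell. Irf5, a factor used by Toll-like receptors, had 147, 145 and 135 FPKM with GM-CSF, against 54.8, 58.0 and 53.5 FPKM without. Each GM-CSF library was far above each untreated one (log2 fold change 1.34, SE 0.05, limma adjusted p = 1.74e-05). Irf7, which drives interferon genes and is itself interferon-induced, had 3.77, 3.90 and 5.11 FPKM with GM-CSF, against 6.61, 7.06 and 6.09 FPKM without. The groups did not overlap (log2 fold change -0.54, limma adjusted p = 0.0171), and the call ended without GM-CSF replicate 1 or 2 or untreated replicate 1 or 2 (0.0529 to 0.0637), with the replicate number as a block (0.0514) and with the highest transcript in place of the sum (0.246). Irf8, a factor of myeloid and B cell development, averaged 0.590 FPKM with GM-CSF and 1.48 FPKM without (log2 fold change -0.63, limma adjusted p = 0.0227). Irf8 reached the level tested only through the untreated libraries, so the filter favoured a fall. Its call ended without GM-CSF replicate 1, 2 or 3 (limma adjusted p 0.0575 to 0.0645), and without untreated replicate 1 or 3 it was too low to test. Irf1, a factor that type II interferon induces, averaged 32.2 FPKM with GM-CSF and 30.1 FPKM without, with overlapping groups (95% interval -0.05 to 0.24).

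In the list of nucleic acid sensors and regulators of interferon induction, 1 of 11 tested genes rose and 1 fell. The adaptor gene Traf3 rose (log2 fold change 0.45, limma adjusted p = 0.00205, and 0.0511 when the highest transcript stood for the gene). The DNA sensor gene Aim2 fell (log2 fold change -0.36, limma adjusted p = 0.0234). Its call ended without GM-CSF replicate 1 or 3 or untreated replicate 1 or 3 (limma adjusted p 0.0529 to 0.0733) and with the replicate number as a block (0.0629).

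Genes of MHC class I presentation, which interferons also raise, moved in 1 direction where they passed. Of 12 tested, 7 fell and 0 rose (58.3% called, against 21.9% of all tested genes in either direction), with a median log2 fold change of -0.18. B2m, the light chain of class I molecules, had 719, 755 and 779 FPKM with GM-CSF, against 921, 918 and 928 FPKM without. The groups did not overlap (log2 fold change -0.30, SE 0.04, limma adjusted p = 0.00388). Peptide transporter genes Tap1 (log2 fold change -0.40) and Tap2 (-0.28) and the immunoproteasome gene Psmb9 (-0.46) fell too. The call of Psmb9 ended without GM-CSF replicate 1 or 2 or any 1 of the untreated libraries (limma adjusted p 0.0643 to 0.0876). The number of falls in the list was 4 without GM-CSF replicate 1 or without untreated replicate 3. H2-D1 and Psme1, also among the falls, lost their calls with median-of-ratios factors (limma adjusted p 0.187 and 0.179). H2-D1 lost it with quantile normalization too (limma adjusted p = 0.185). In all, H2-D1 lost its call under 9 of 16 alternatives and Psme1 under 10. Without GM-CSF replicate 1, 2 or 3 or untreated replicate 2 or 3 the limma adjusted p of H2-D1 was 0.0646 to 0.115. For Psme1 it was 0.112 to 0.124 without GM-CSF replicate 1 or 3 or untreated replicate 1 or 3.

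The list of other interferon-induced genes held 9 rises and 5 falls among 38 tested. Slfn1, a Schlafen protein known in mouse to hold back T cell growth, had 20.5, 24.1 and 23.1 FPKM with GM-CSF, against 4.91, 5.81 and 6.08 FPKM without. The groups were far apart (log2 fold change 1.84, SE 0.09, limma adjusted p = 5.23e-05). Nampt, an enzyme of NAD synthesis (log2 fold change 1.30), Irgm2 (1.06) and Gbp8 (0.64) were the next by size. The call of Gbp8 ended without GM-CSF replicate 2 or 3 or untreated replicate 1 or 3 (limma adjusted p 0.0614 to 0.0681). Ly6e, a surface protein that impairs coronavirus entry, had 99.3, 102 and 105 FPKM with GM-CSF, against 197, 193 and 202 FPKM without. It had the largest fall of the list (log2 fold change -0.95, SE 0.04, limma adjusted p = 2.3e-05). Lgals9, a galectin (log2 fold change -0.65), Sp110, a nuclear body protein (-0.45), and Uba7, the activating enzyme for Isg15 (-0.41), fell as well.

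**Figure D4:**
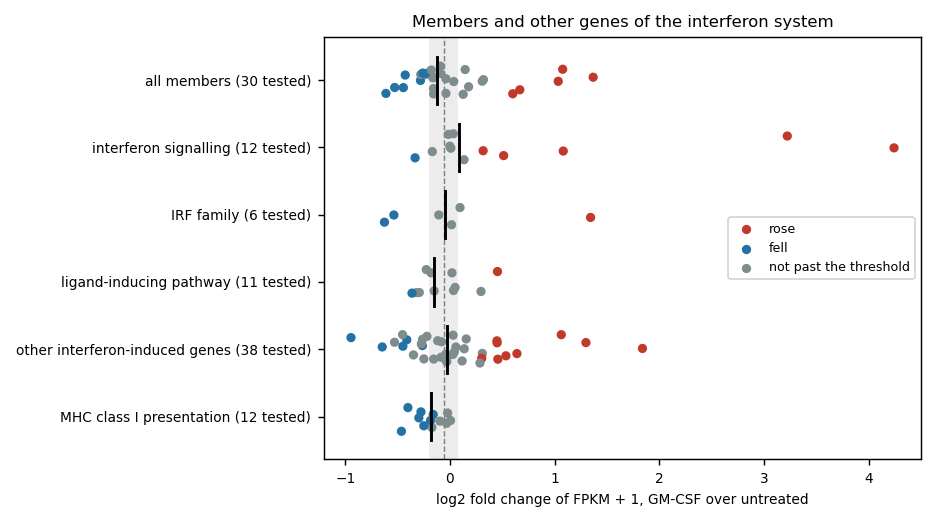
Log2 fold change of FPKM + 1, GM-CSF over untreated, for the tested members and for lists of other genes of the interferon system. Each point is a gene, the black bar is the list's median, and the grey band and dashed line are the 25th to 75th percentile and the median of all tested genes. Socs1 at 4.24 is the highest while the 12 MHC class I genes lie at or below 0.01.

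The cells carried eosinophil markers, 12 of which summed to 2119 to 2316 FPKM with GM-CSF and 1905 to 2071 FPKM without. Of 10 tested, 3 rose and 3 fell. More than the whole difference of the sums lay in Csf2rb, the shared GM-CSF receptor chain, at 1098 FPKM with GM-CSF and 600.4 FPKM without. The lipoxygenase gene Alox15 (157 FPKM with GM-CSF and 461 FPKM without), the interleukin-5 receptor gene Il5ra (11.2 and 25.1 FPKM in the same order) and the eosinophil peroxidase gene Epx (4.27 and 6.62 FPKM) fell. Siglec5, the older symbol of the eosinophil lectin Siglecf, averaged 170.4 FPKM with GM-CSF and 170.1 FPKM without, and the eotaxin receptor gene Ccr3 251 FPKM with GM-CSF and 289 FPKM without, neither past the threshold. Markers of other cells were present too, and several fell beside the members that fell. The 7 B and plasma cell markers summed to 16.7 to 17.7 FPKM with GM-CSF and 31.0 to 38.5 FPKM without, and 5 of 5 tested fell. Mzb1, among these 5, averaged 0.725 FPKM with GM-CSF and 2.01 FPKM without, and so reached the level tested only through the untreated group. The 7 measured T cell markers summed to 15.8 to 18.6 FPKM with GM-CSF and 28.7 to 30.1 FPKM without, and 4 of 5 tested fell. The 12 epithelial markers summed to 56.3 to 70.2 FPKM with GM-CSF and 87.7 to 93.3 FPKM without, with 4 of 9 tested lower and Muc2 near 0.

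The 9 macrophage and monocyte markers summed to 129 to 139 FPKM with GM-CSF and 134 to 153 FPKM without, with 3 of 4 tested lower and Mertk near 0. The 7 measured neutrophil markers summed to 1142 to 1169 FPKM with GM-CSF and 1369 to 1485 FPKM without. Most of that sum was Retnlg, while Elane was listed at 0 in every library, and 1 of 5 tested rose and 2 fell. The 8 dendritic cell markers summed to 21.6 to 26.7 FPKM with GM-CSF and 19.2 to 22.3 FPKM without. Most of that sum was Bst2, with Flt3 and Cd209a near 0, and 0 of 3 tested passed. Of the NK and innate lymphoid cell markers Gzma and Il7r were tested and fell, Il7r having reached the level tested only through the untreated libraries (0.907 FPKM with GM-CSF and 2.10 FPKM without). Of 4 mast cell markers tested, 2 fell. The 8 stromal and endothelial markers, mostly Pecam1, summed to 118 to 132 FPKM with GM-CSF and 152 to 169 FPKM without, with 6 near 0. Of the 2 tested, Pecam1 fell and Pdgfra rose, to 8.27 FPKM with GM-CSF against 3.50 FPKM without (limma adjusted p = 0.000182). The part of these cells in the changes of the members was not tested, and in bulk RNA fewer cells of a type and less RNA per cell cannot be told apart.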

How the data were processed

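Poly(A) RNA of 6 cultures was sequenced from strand-keeping libraries, per the labels' protocols. FPKM values per RefSeq transcript were deposited by the authors in 1 table per library, with no pooling. The tables also hold the mean read coverage of each transcript (cov, per the file headers). bcl2fastq 1.8.4, TopHat, TopHat2, Cufflinks and the build mm10 are named per the submitters' processing notes, while settings, strand use and the treatment of reads that match several genes are not given in the sources used here.

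From these, FPKM were summed per symbol (30374 transcripts, 23283 symbols), and coverage divided by FPKM gave the aligned gigabases of each library. Read counts were not used here, so no count model was run and no counting interval is given. The main test was limma 3.58.1 with a variance trend (R 4.3.3) on log2(FPKM + 1), two-sided, for the 10106 symbols whose mean over the libraries reached 1 FPKM, with Benjamini-Hochberg adjustment over all of them and a threshold of 0.05. The script was tested on simulated data. The members, the lists and the alternatives were chosen with earlier results of these data known, so no count over them is independent evidence.

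Values per library are given for called members, the 4 receptor subunits and the 2 most abundant members of each role. Up to 4 called genes of each other list are named in each direction by size, and Stat2, Irf9, Irf1 and Irf7 always. H2-D1 and Psme1 are named for their dependence on scaling. A further gene that the rule names is not reported here. Of the other list symbols, 131 matched by symbol, 2 by RefSeq accession and 1 did not match. Of the markers, 85 matched and 3 did not. Gene coordinates and promoters are from RefSeq on GRCm38.p6, and strands and overlaps of the genes are from GENCODE M21 on GRCm38. Besides Igtp, the called members Ifnar2 (Gm21970) and Ifitm2 (Gm45717) overlap another annotated gene on the same strand. Ifi35 (Gm11626) and Oasl1 (Gm13822) overlap one on the opposite strand. The effect of these overlaps on the values was not tested. The span given for Ifitm2 reaches past the start used for its promoter run. Alternatives changed the pseudocount, filter, scaling, variance model, transcript summing, replicate block and libraries.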

Additional observations from a re-analysis of the deposited data

How the results depend on the processing

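Igtp, Gbp7, Ifi35, Ifnar1, Ifnar2, Oasl1, Samhd1 and Ifitm2 kept their direction and their call under every alternative in which they were tested (limma adjusted p under 0.05), and the calls of Zbp1, Parp14, Ifitm1 and Ifitm3 did not. Zbp1 lost its call under 9 of 16 alternatives, Ifitm1 under 11, Ifitm3 under 8 and Parp14 under 4. With 1 library left out, 3 to 5 members rose and 5 to 7 fell, the 3 rises occurring without GM-CSF replicate 1, GM-CSF replicate 3 or untreated replicate 2. Over all tested genes the falls then ranged over 888 to 1117, the lowest without untreated replicate 2, and those of the pathway lists together over 9 to 12. The cause was not tested.

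Directions turned only for values that had not passed the test. With median-of-ratios factors the log2 fold change was 0.035 for Ifngr2, 0.018 for Gbp2 and 0.053 for Stat2. With quantile normalization it was 0.033 for Gbp2 and 0.029 for Stat2. Taking the strongest transcript in place of the sum, it was -0.039 for Adar and -0.26 for Isg20. With 1 library left out in turn, the log2 fold change ranged over -0.18 to 0.094 for Gbp2, -0.062 to 0.020 for Stat2 and -0.022 to 0.058 for Slfn5.

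The labels give both groups replicate numbers 1 to 3. Deviations of same-numbered libraries from their group means correlated at -0.03, 0.05 and -0.02, and those of differently numbered libraries at -0.07 to 0.09. Deviations from a mean of 3 libraries cancel within each group, so these correlations are not independent of one another. A principal component analysis of all tested genes gave a second axis with 19.6% of the variance. In replicate order its values were 17.5, -27.0 and 19.7 for GM-CSF and 13.9, -22.0 and -2.19 for untreated libraries. Replicate 2 was thus the lowest of both groups. Whether same-numbered cultures shared a preparation is not given by the labels and was not tested. With the replicate block 5 members rose and 6 fell, and 723 of all tested genes rose and 1273 fell. Genes under 1 FPKM, such as the IFIT genes, rest on too few aligned bases for their differences to be measured well at this depth.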

Other observations

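The members' transcripts were read one by one after their gene values had been seen, so these values carry no test. Isg20 has 2 transcripts in the tables. The one of 892 nt had 4.82, 5.60 and 5.28 FPKM with GM-CSF, against 2.72, 1.53 and 1.69 FPKM without, and every GM-CSF library was above every untreated one. It held 51.3 to 53.7% of the gene's FPKM with GM-CSF and 17.5 to 29.8% without. The one of 1083 nt averaged 4.78 FPKM with GM-CSF and 6.10 FPKM without. Of the 2 Ifitm1 transcripts, the one of 702 nt had 26.4, 10.5 and 24.3 FPKM with GM-CSF, against 75.3, 74.2 and 54.6 FPKM without. The dominant one, of 676 nt, averaged 757 FPKM with GM-CSF and 865 FPKM without. How reads were divided between such transcripts is an estimate of the authors' quantification.

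The Schlafen genes, which are expressed in lymphocytes and myeloid cells, were singled out after their values were seen. Of 7 tested, 5 rose, where 7.68% of all tested genes rose. Slfn2 averaged 527 FPKM with GM-CSF and 363 FPKM without (log2 fold change 0.54, limma adjusted p = 0.000517), and Slfn1, Slfn3, Slfn4 and Slfn8 rose as well, Slfn4 without a call when GM-CSF replicate 2 or untreated replicate 2 was left out (limma adjusted p 0.0521 to 0.0650) or the replicate block was used (0.0519). Slfn5 averaged 3.16 FPKM with GM-CSF and 3.08 FPKM without, and Slfn9 1.24 FPKM with GM-CSF and 0.827 FPKM without, neither past the threshold.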
